A study of Mus musculus with 4 samples.

Results

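The genes described here build, bind, cut and cross-link the extracellular matrix. They are the collagens outside the main basement membrane chains, the integrins, the matrix metalloproteinases (Mmp) with their tissue inhibitors (Timp), the Adamts proteases and the lysyl oxidases. They were picked by a rule on gene symbols that uses no measured value, with Col4a1 and Col4a2 left out. The rule and the gene lists used below were nevertheless set with earlier results of these data known. Of the 19938 genes measured by a probe set with a single symbol, 117 matched. The 117 comprise 42 collagens, 26 integrins, 22 Mmp genes, 4 Timp genes, 18 Adamts genes and 4 lysyl oxidases. The last, Loxhd1, matched by name only and is no lysyl oxidase.

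The series compared Kdm2b knockdown cells (2 arrays) with control cells (2 arrays) of E14, a mouse embryonic stem cell line of an inbred 129 strain. RNA was hybridised to the Affymetrix MoGene 1.0 ST array. Kdm2b binds unmethylated CpG-rich DNA and belongs to a variant of Polycomb repressive complex 1, a complex that silences developmental genes, and the study asks how it maintains the stem cell state. The protocol, given in the same words for both groups, has cells grown on gelatin with serum and leukemia inhibitory factor, transduced with lentiviral vectors and selected with puromycin. The labels name neither the knockdown sequence nor what the control vector carried, and they do not tie the replicates to separate cultures. The p-values therefore measure the spread between these arrays, which may be technical.

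Kdm2b had log2 expression of 9.20 and 9.19 in the knockdown arrays, against 10.74 and 10.64 in the control arrays. All 10 markers of pluripotent cells examined, among them Pou5f1, Sox2 and Nanog, lay above 8.52, the median of all probe sets, and 0 of them passed the threshold in limma (0.05 for the p-value adjusted over all 19938 genes). The threshold was passed by 12.2% of all genes, 5.00% as higher and 7.19% as lower in knockdown cells. With any 1 of the 4 arrays left out, limma called 0 of the 19938 genes, with 3495 to 4215 at an unadjusted p under 0.05. These fits have 1 residual degree of freedom and lose the call of Kdm2b too. The 8 members called below kept their direction in each of them. Their knockdown and control arrays do not overlap, so leaving out 1 array could not have reversed it.

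Collagens are secreted as triple helices that assemble into fibrils, networks or filaments, and lysyl oxidases cross-link them. Integrins are receptors made of 1 alpha and 1 beta chain that tie the cytoskeleton to matrix proteins, and the pair of chains sets the ligand. Mmp and Adamts enzymes cut matrix proteins, and Timp proteins block Mmp enzymes and some Adamts enzymes. In early mouse embryos the primitive endoderm and its derivatives lay down much of the first matrix, which is rich in laminin and collagen IV.

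After Kdm2b knockdown, 6 of the 117 genes were higher and 2 were lower, and 109 did not pass the threshold. Together this is 6.84% of the members, against 12.2% of all genes. The 6 higher genes were 5 integrin chains and 1 membrane-bound protease, namely Itga8, Itga3, Itgb5, Itga4, Itgb4 and Mmp14. The 2 lower genes were the protease inhibitors Timp3 and Timp2. For each of these 8 the knockdown arrays lay wholly on 1 side of the control arrays, which held for 69 of the 117 members and for 58.8% of all genes. A change of at least 1.5-fold was seen for 3 members (Itga8, Itga3 and Timp3), against 3.64% of all genes.

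**Figure D1:**
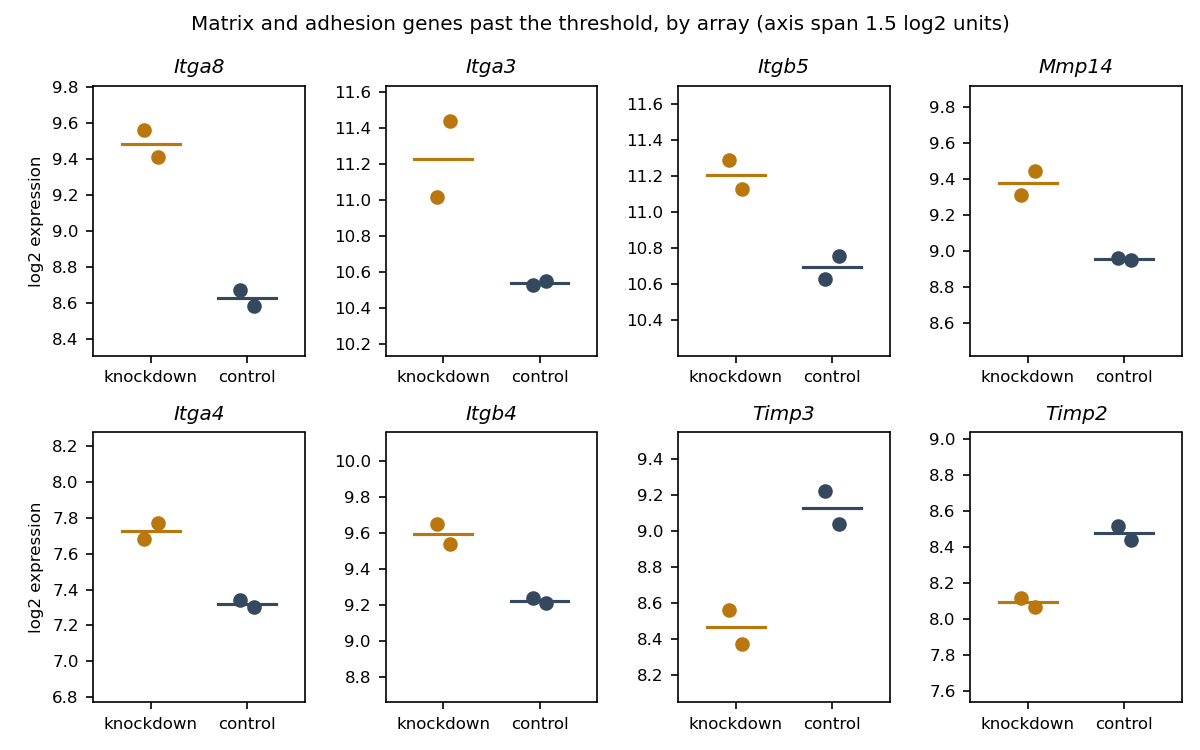
Log2 expression (vertical axis, each panel spanning the same range) of the 8 genes past the threshold on each array, with knockdown arrays left and control arrays right, a point per array and a line at each group's mean. The knockdown and control points do not overlap in any panel. Itga3 has the widest gap between its knockdown arrays, 11.02 against 11.44.

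**Figure D2:**
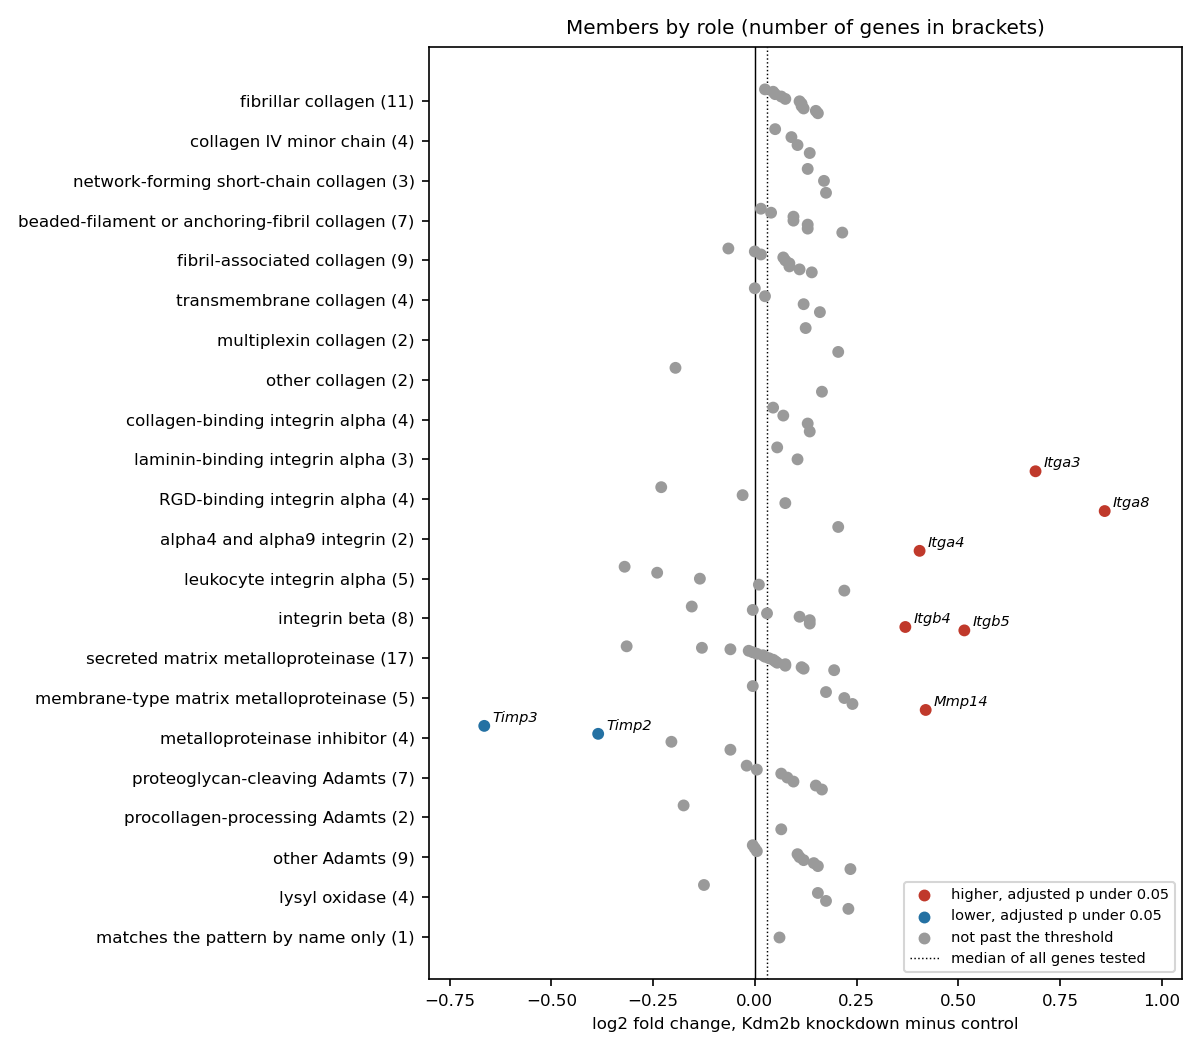
Log2 fold change (horizontal axis, knockdown minus control) of all 117 genes, grouped by role, with a point per gene coloured by whether it passed the threshold. The collagens cluster between -0.195 and 0.215, and the coloured points lie among the integrins, the membrane-type Mmp genes and the Timp genes.

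Itga8 encodes the alpha8 chain, which pairs with the beta1 chain in a receptor for the RGD tripeptide of matrix proteins such as nephronectin. Its log2 expression was 9.56 and 9.41 in the knockdown arrays, against 8.67 and 8.58 in the control arrays. Both knockdown values lay well above both control values. Itga8 was 1.82-fold higher in knockdown cells (log2 fold change 0.86, SE 0.078, adjusted p = 0.00592, limma).

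Itga3 encodes the alpha3 chain, which with beta1 binds laminins. It had 11.02 and 11.44 in the knockdown arrays, against 10.53 and 10.55 in the control arrays. The knockdown arrays differed from each other more than the control arrays did, but both were above them. The log2 fold change was 0.69 (SE 0.14, adjusted p = 0.0302, limma). With knockdown replicate 2 left out it was 0.48, and with knockdown replicate 1 left out 0.90.

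Itga4 encodes the alpha4 chain, which binds fibronectin and the vascular adhesion molecule Vcam1. It had 7.68 and 7.77 in the knockdown arrays, against 7.34 and 7.30 in the control arrays. The groups did not overlap. The log2 fold change was 0.405 (SE 0.066, adjusted p = 0.0186, limma). Its mean log2 value of 7.52 is under the median of all probe sets, and the gene overlaps Cerkl in the RefSeq annotation, whose log2 fold change was -0.685 (adjusted p = 0.0198, limma).

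**Figure D3:**
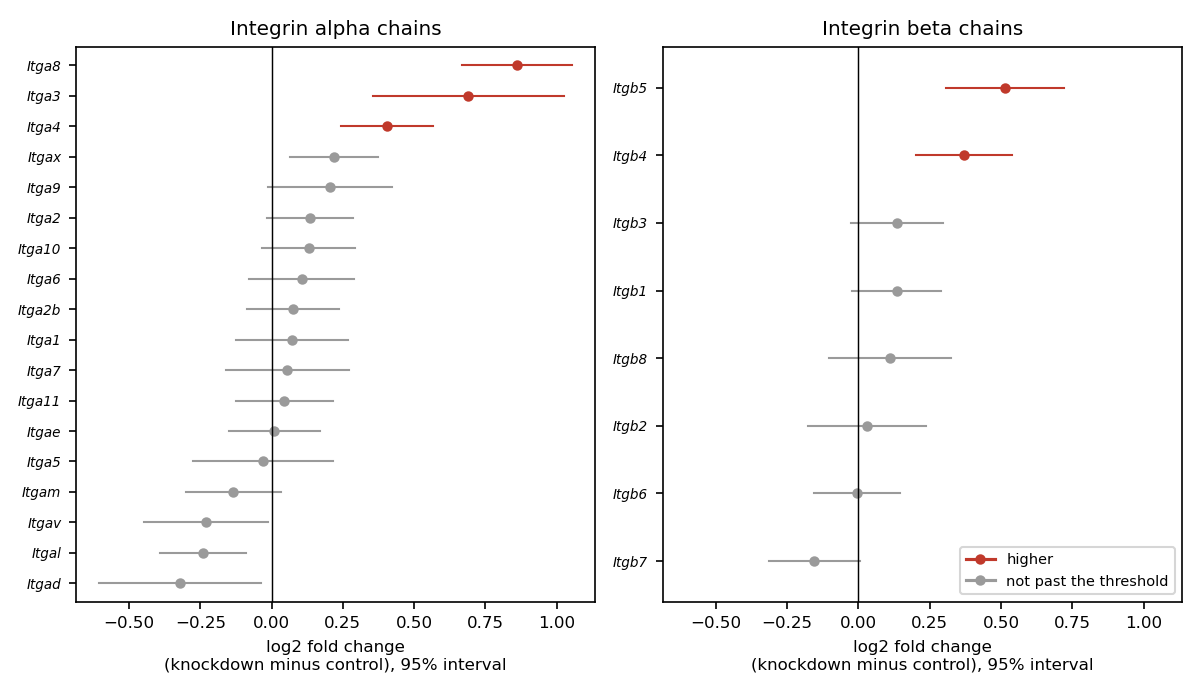
Log2 fold change (points, horizontal axis) with the 95% confidence interval of limma (lines) for the 18 integrin alpha chains, left, and the 8 beta chains, right. The intervals of Itga8, Itga3, Itga4, Itgb5 and Itgb4 lie above 0 and those genes passed the threshold, while most other intervals span 0.

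Among the beta chains, Itgb5 pairs with the alphav chain in a vitronectin receptor. It had 11.29 and 11.13 in the knockdown arrays, against 10.63 and 10.76 in the control arrays. The gap between the groups was larger than the spread within either, and Itgb5 was 1.43-fold higher in knockdown cells (log2 fold change 0.515, SE 0.084, adjusted p = 0.0189, limma).

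Itgb4 pairs with the alpha6 chain in the laminin receptor of hemidesmosomes. It had 9.65 and 9.54 in the knockdown arrays, against 9.24 and 9.21 in the control arrays, again without overlap. The log2 fold change was 0.37 (SE 0.068, adjusted p = 0.0254, limma).

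The partner chains of these 5 did not pass the threshold. Itgb1, a partner of alpha8, alpha3 and alpha4, had 11.31 and 11.37 in the knockdown arrays and 11.18 and 11.23 in the control arrays (log2 fold change 0.135, 95% interval -0.021 to 0.29, adjusted p = 0.219, limma). Itgb7, which can also pair with alpha4, had 9.62 and 9.64 in the knockdown arrays and 9.83 and 9.74 in the control arrays (-0.155, adjusted p = 0.178, limma). The Itgb7 arrays did not overlap, with the opposite sign to Itga4. Itga6, the partner of beta4, had 12.38 and 12.52 in the knockdown arrays and 12.31 and 12.38 in the control arrays (0.105, 95% interval -0.079 to 0.29). Itgav, the partner of beta5, had 10.82 and 10.64 in the knockdown arrays, against 11.03 and 10.89 in the control arrays (-0.23, 95% interval -0.45 to -0.011, adjusted p = 0.152, limma). The Itgav arrays did not overlap, with the opposite sign to Itgb5.

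Across the 26 integrin genes 5 were higher, 0 lower and 21 neither, which is 19.2% past the threshold, against 12.2% of all genes (5.00% higher). At an unadjusted p under 0.05 in limma, which 29.8% of all genes reached, 6 were higher and 3 lower. The median log2 fold change was 0.09, against 0.03 over all genes tested. The 4 alpha chains that bind collagen (Itga1, Itga2, Itga10 and Itga11) had log2 fold changes of 0.045 to 0.135. The values for Itga2 were 7.37 and 7.32 in the knockdown arrays and 7.22 and 7.20 in the control arrays, and those for Itga10 were 8.54 and 8.64 in the knockdown arrays and 8.45 and 8.47 in the control arrays. Itga5, the alpha chain of the main fibronectin receptor, overlapped between the groups, with 12.25 and 12.39 in the knockdown arrays and 12.47 and 12.23 in the control arrays. Itga9 had a log2 fold change of 0.205 (95% interval -0.012 to 0.42).

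The alpha chains of leukocytes went both ways without passing the threshold. Itgal had 8.30 and 8.35 in the knockdown arrays, against 8.55 and 8.58 in the control arrays (log2 fold change -0.24, adjusted p = 0.0601, limma), and after median centring of the arrays it passed (-0.28, adjusted p = 0.0401). Itgad had -0.32 (adjusted p = 0.131, limma) from the probe set used and 0.16 from a dimmer one, so its probe sets disagree in sign. Itgax had 0.22 and Itgam -0.135. Of 8 blood cell markers measured, 0 were higher and 1 was lower (12.5%, near the 12.2% of all genes).

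In the collagens, which supply the ligands of several of these receptors, 0 of 42 passed the threshold in limma, against 12.2% of all genes. At an unadjusted p under 0.05 in limma there were 3, all of them positive. Of all genes, 29.8% reached that level in either direction. The log2 fold changes ran from -0.195 (Col26a1) to 0.215 (Col6a5), and the 95% intervals of all 42 lay between -0.417 and 0.399. The median was 0.10, with 38 positive, 2 negative and 2 at 0. After median centring of the arrays the collagen median was 0.06, with 33 positive and 8 negative. Over all genes the median was 0.03 and 56.9% were positive, or a median of -0.01 after centring. Knockdown and control arrays did not overlap for 22 collagens in the positive direction and 2 in the negative, where the positive direction held for 33.8% of all genes and the negative for 25.0%.

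The 11 fibrillar collagens, which form the banded fibrils of connective tissue, all had small positive log2 fold changes, from 0.025 (Col11a1) to 0.155 (Col5a3). The groups did not overlap for 6 of them, where 33.8% of all genes did not overlap in the positive direction. Col1a1, the main chain of type I collagen, had 9.51 and 9.46 in the knockdown arrays, against 9.32 and 9.35 in the control arrays (0.15, 95% interval -0.0016 to 0.30, adjusted p = 0.171, limma). Its partner chain Col1a2 had 9.03 and 8.93 in the knockdown arrays and 8.93 and 8.90 in the control arrays (0.065, adjusted p = 0.559, limma). The type III chain Col3a1 had 8.84 and 8.81 in the knockdown arrays and 8.74 and 8.68 in the control arrays (0.115, adjusted p = 0.277, limma). After median centring, 1 of the 11 was negative.

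Col18a1, a basement membrane collagen whose end fragment is endostatin, had 11.45 and 11.31 in the knockdown arrays, against 11.12 and 11.23 in the control arrays (0.205, 95% interval 0.012 to 0.40, adjusted p = 0.15, limma). Its arrays did not overlap, nor did those of the related Col15a1 (0.125). The type VI chain Col6a5 had 8.70 and 8.61 in the knockdown arrays, against 8.48 and 8.40 in the control arrays (0.215, adjusted p = 0.1, limma), and a further, dimmer probe set gave 0.06. Another type VI chain, Col6a3, had 0.13, and the fibril-associated Col14a1 and Col20a1 had 0.14 and 0.11. The transmembrane Col23a1 had 0.12 and Col28a1 had 0.165, none of these 5 past the threshold in limma. Col26a1 ran the other way, with 10.06 and 9.89 in the knockdown arrays and 10.25 and 10.09 in the control arrays (-0.195, adjusted p = 0.213, limma).

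The minor collagen IV chains Col4a3, Col4a4, Col4a5 and Col4a6 had log2 fold changes of 0.05 to 0.135, with only Col4a5 free of overlap. The main chains Col4a1 and Col4a2, which are not members, had 0.535 and 0.46 and passed the threshold (adjusted p = 0.0142 and 0.0141, limma). The 3 short-chain network collagens (Col8a1, Col8a2 and Col10a1) had 0.13 to 0.175, the 9 fibril-associated collagens -0.065 to 0.14, and the 4 transmembrane collagens 0 to 0.16. Col8a2 and Col13a1 (0.175 and 0.16) led the short-chain and transmembrane groups.

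Of 24 genes whose products modify, fold and trim procollagen, 7 were higher and 0 lower, which is 29.2% past the threshold, against 12.2% of all genes (5.00% higher, 7.19% lower). The list's median log2 fold change was 0.175, against 0.03 over all genes. Whether this list differs from the collagens was not tested. P3h2, a prolyl 3-hydroxylase known for acting on collagen IV, had 9.03 and 9.13 in the knockdown arrays, against 8.43 and 8.27 in the control arrays (0.73, SE 0.081, adjusted p = 0.00859, limma). Plod2, a lysyl hydroxylase, had 11.24 and 11.24 in the knockdown arrays, against 10.60 and 10.77 in the control arrays (0.555, adjusted p = 0.0137, limma). P4ha2, a catalytic chain of prolyl 4-hydroxylase, had 9.68 and 9.67 in the knockdown arrays, against 9.22 and 9.10 in the control arrays (0.515, adjusted p = 0.0123, limma). Both groups stood clear of each other in all 3 genes.

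Pcolce2, an enhancer of procollagen C-proteinase, rose by 0.485 on the log2 scale (adjusted p = 0.0185, limma). The collagen chaperone gene Serpinh1 rose by 0.46, P4hb, the beta chain of prolyl 4-hydroxylase, by 0.365 and P3h4 by 0.32. Among those not past the threshold, P4ha1 had 0.44 (95% interval 0.065 to 0.82) and Plod1 -0.225 (95% interval -0.38 to -0.070).

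**Figure D4:**
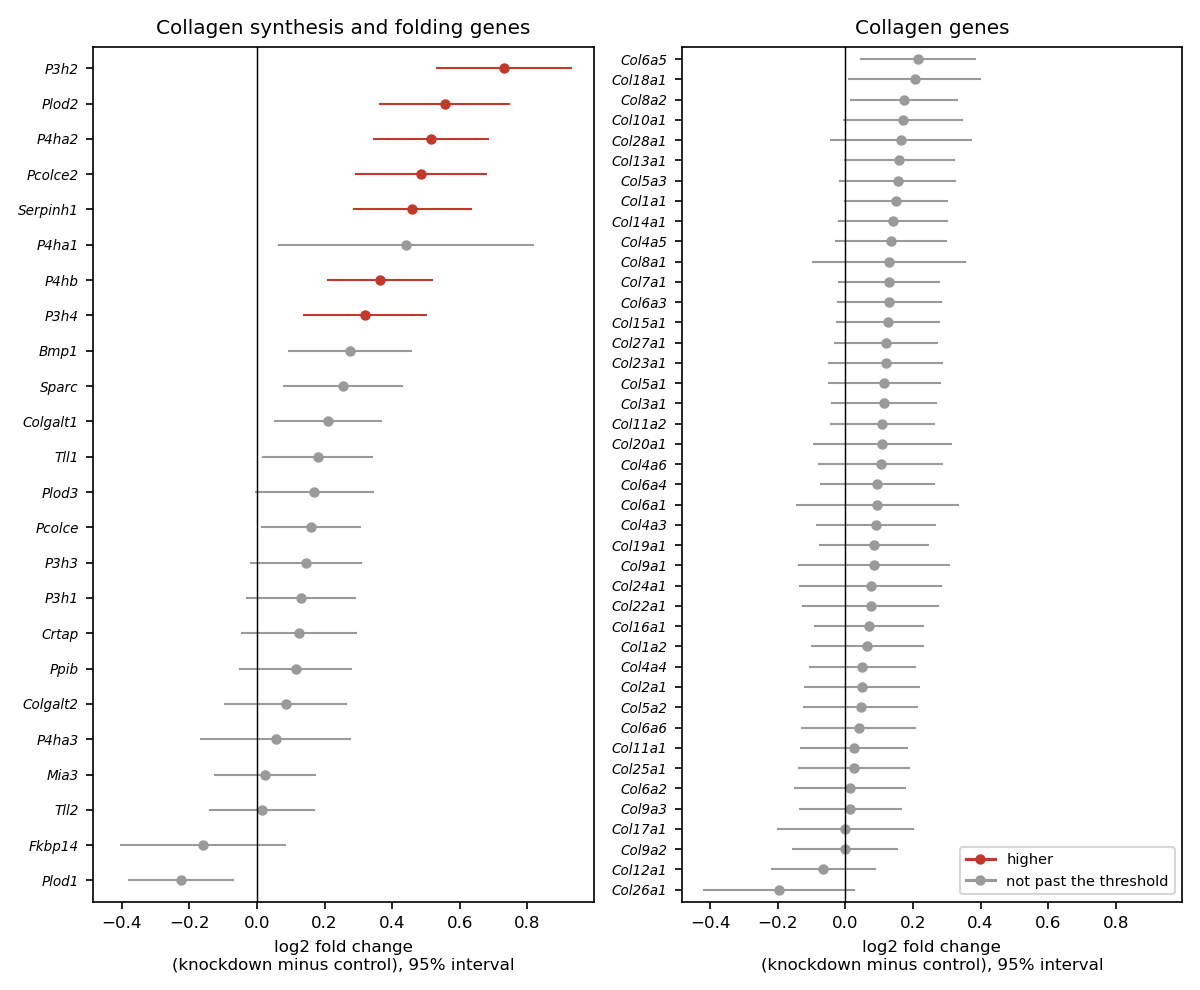
Log2 fold change (points, horizontal axis, knockdown minus control) with the 95% confidence interval of limma (lines) for 24 genes of collagen synthesis and folding, left, and the 42 collagen genes, right, on the same scale. On the left 7 genes passed the threshold, and on the right 0 did.

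Of the 22 Mmp genes 1 was higher, 0 lower and 21 neither, which is 4.55% past the threshold, against 12.2% of all genes. Mmp14 encodes the membrane-bound protease MT1-MMP, which cuts fibrillar collagen and activates the Mmp2 proenzyme at the cell surface. It had 9.31 and 9.44 in the knockdown arrays, against 8.96 and 8.95 in the control arrays. The groups did not overlap, and the log2 fold change was 0.42 (SE 0.07, adjusted p = 0.0201, limma).

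The other 4 membrane-type genes did not pass the threshold. Mmp17 had 9.70 and 9.79 in the knockdown arrays, against 9.50 and 9.51 in the control arrays (log2 fold change 0.24, adjusted p = 0.068, limma), and it passed when dim genes were left out of the fit (adjusted p = 0.0469). Mmp16 had 0.22 and Mmp24 0.175, both free of overlap, and Mmp25 had -0.005. The 17 secreted Mmp genes ran from -0.315 to 0.195 with a median of 0.035. Mmp2, a gelatinase, had 10.29 and 9.93 in the knockdown arrays, against 10.37 and 10.48 in the control arrays (-0.315, 95% interval -0.62 to -0.0089, adjusted p = 0.159, limma). Mmp21 had 0.195 (adjusted p = 0.118, limma). Mmp9, the other gelatinase, had 8.65 and 8.73 in the knockdown arrays and 8.67 and 8.72 in the control arrays.

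The Timp genes had negative log2 fold changes in 4 of 4 cases, against 8309 of the 19938 genes tested. Past the threshold, 2 of the 4 were lower, against 7.19% of all genes. Timp3, whose protein is bound to the matrix and inhibits Mmp enzymes and Adamts aggrecanases, had 8.56 and 8.37 in the knockdown arrays, against 9.22 and 9.04 in the control arrays. The lowest control array stood clear of the highest knockdown array. Timp3 was thus 1.59-fold lower in knockdown cells (log2 fold change -0.665, SE 0.097, adjusted p = 0.0147, limma). The gene Syn3, which overlaps Timp3 in the annotation, had -0.045 (adjusted p = 0.657, limma). Among the other members past the threshold, Timp2 overlaps Cep295nl (0.095, adjusted p = 0.434, limma), Itgb4 overlaps B230344G16Rik (0.185, adjusted p = 0.185, limma) and Galk1, and Itga8 overlaps E030013I19Rik. No value for Galk1 or E030013I19Rik was used here.

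Timp2, which inhibits Mmp14 and also takes part in the activation of Mmp2, had 8.12 and 8.07 in the knockdown arrays, against 8.52 and 8.44 in the control arrays. The log2 fold change was -0.385 (SE 0.065, adjusted p = 0.0207, limma), and the mean log2 value of 8.29 was under the median of all probe sets. Timp1 had 11.05 and 11.27 in the knockdown arrays, against 11.41 and 11.32 in the control arrays (-0.205, 95% interval -0.43 to 0.019, adjusted p = 0.199, limma). Timp4 overlapped between the groups (-0.06, adjusted p = 0.617, limma), and without control replicate 2 its log2 fold change was 0.005.

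Among 14 further regulators of matrix proteolysis 2 were higher and 1 was lower (21.4% past the threshold, against 12.2% of all genes). Reck, a membrane-anchored inhibitor of Mmp enzymes, had 9.78 and 9.71 in the knockdown arrays, against 10.36 and 10.14 in the control arrays (log2 fold change -0.505, adjusted p = 0.0231, limma). Plaur, the receptor of urokinase plasminogen activator, had 10.68 and 10.72 in the knockdown arrays, against 9.88 and 10.07 in the control arrays (0.725, adjusted p = 0.00875, limma). Adam10, a sheddase, rose by 0.35. The groups did not overlap in any of these 3 genes.

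By the probe set with the highest mean of each gene, none of the 18 Adamts genes passed the threshold in limma, against 12.2% of all genes. At an unadjusted p under 0.05 in limma 3 were higher and 1 lower, a level that 29.8% of all genes reached. The median log2 fold change of the 18 was 0.0875. Adamts7, a protease of cartilage oligomeric matrix protein, had 9.61 and 9.51 in the knockdown arrays, against 9.30 and 9.35 in the control arrays (0.235, adjusted p = 0.0779, limma). Adamts14, which trims the amino end of procollagen, had 10.12 and 10.11 in the knockdown arrays, against 10.33 and 10.25 in the control arrays (-0.175, adjusted p = 0.134, limma), and Adamts3, of the same activity, had 0.065. The 7 proteoglycan-cleaving members, among them the aggrecanases Adamts4 and Adamts5, ran from -0.02 to 0.165, led by Adamts8 (0.165) and Adamts1 (0.15). Among the other 9, Adamts19 had 0.155 after Adamts7. Adamts9, a proteoglycan-cleaving member, had -0.02 by the probe set used, while 2 of its 5 further probe sets passed in a fit over every probe set with a single symbol (0.39, adjusted p = 0.0212, and 0.40, adjusted p = 0.042, limma).

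None of the 4 lysyl oxidases passed the threshold in limma, against 12.2% of all genes. At an unadjusted p under 0.05 in limma there were 2 of the 4, against 29.8% of all genes. Loxl3 had 8.41 and 8.42 in the knockdown arrays, against 8.25 and 8.23 in the control arrays (log2 fold change 0.175, adjusted p = 0.116, limma). Loxl4 had 8.47 and 8.20 in the knockdown arrays, against 8.15 and 8.06 in the control arrays (0.23, adjusted p = 0.197, limma), where a dimmer probe set gave -0.025. Lox had 0.155 and Loxl1 -0.125, and Loxhd1 0.06.

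Beyond the members, 18 integrin ligands other than collagens and laminins held 0 genes past the threshold in limma (the Fn1 log2 fold change was -0.225, adjusted p = 0.0836, and that of Thbs1 0.38, adjusted p = 0.0765). Of 21 genes of the integrin adhesion machinery 1 was higher and 2 were lower (14.3%, near the 12.2% of all genes). The docking protein gene Bcar1 rose by 0.415 (adjusted p = 0.0145, limma), while the talin gene Tln2 fell by 0.375 (adjusted p = 0.0285) and the adaptor gene Lims1 by 0.29 (adjusted p = 0.0359). Of 13 Adamts-like genes and small leucine-rich proteoglycans 0 passed. Over these related lists together, 90 genes, 10 were higher and 3 lower (14.4%, against 12.2% of all genes), or 9 and 5 after median centring. With centring 2707 of all genes passed, against 2431 without it.

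Markers of other cells moved with these changes in part. Of 15 markers of primitive and parietal endoderm 6 were higher and 0 lower. This is 40.0% past the threshold, against 12.2% of all genes (5.00% higher). The 6 were Gata6, Dab2, Srgn, Sox17, Col4a1 and Col4a2. Col4a1 and Col4a2 are themselves matrix genes given above, so the list is not separate from the matrix genes. It also holds Lama1, Lamb1 and Sparc, and Sparc is counted in the collagen synthesis list too. Hnf4a had a log2 fold change of -0.145. The mean log2 value of the 15 was 10.095 and 10.37 in the knockdown arrays, against 9.68 and 9.49 in the control arrays. Gata6 had 11.74 and 12.60 in the knockdown arrays, against 10.07 and 10.04 in the control arrays. The part of these markers in the values of the integrins, proteases, inhibitors and collagen-modifying genes was not tested. In bulk RNA a change in the number of cells of a type and a change in RNA per cell cannot be told apart.

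Fibroblast or feeder markers did not move together. Of 13, 1 was higher (Twist1) and 3 were lower (Pdpn, Pdgfrb and Acta2), which is 30.8% past the threshold, against 12.2% of all genes. The mean log2 values of the 13 were 8.046 and 7.999 in the knockdown arrays and 8.128 and 8.109 in the control arrays. Of the 13, 6 had a mean at or under the median of all probe sets, among them Dcn, Lum, Postn and Prrx1, and the other 7, led by Pdpn and Thy1, lay above it. Among 11 mesoderm markers 3 were higher and 0 lower (27.3% past the threshold, against 12.2% of all genes). The 3 were Tbx20 (1.315), Eomes (0.915) and Kdr (0.355). The other 8, among them Mesp1, Mixl1 and Tbx6, did not pass. The median log2 fold change of the 11 was 0.08, against 0.03 over all genes.

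The promoters of the genes that passed the threshold were examined for CG dinucleotides, since Kdm2b is known to bind unmethylated CG-rich DNA. RefSeq promoter windows of GRCm38.p6 (250 bases before to 50 after a gene's start) were given for 7 of the 8 genes and for 82 of the 117. The bases before the start are shown for the 3 genes with the largest change among those with a single window and for Mmp14, which has fewer CG, 5′ to 3′ on the gene's own strand with each CG in capitals. They lie at chr2:12301945-12302194 on the minus strand (Itga8), chr10:86300162-86300411 on the plus strand (Timp3), chr16:33829415-33829664 on the plus strand (Itgb5) and chr14:54431348-54431597 on the plus strand (Mmp14).
Itga8: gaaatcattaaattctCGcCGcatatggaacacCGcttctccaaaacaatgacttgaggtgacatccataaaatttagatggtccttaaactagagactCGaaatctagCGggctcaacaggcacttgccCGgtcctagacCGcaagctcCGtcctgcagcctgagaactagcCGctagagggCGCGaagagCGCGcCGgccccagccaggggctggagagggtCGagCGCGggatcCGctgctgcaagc
Timp3: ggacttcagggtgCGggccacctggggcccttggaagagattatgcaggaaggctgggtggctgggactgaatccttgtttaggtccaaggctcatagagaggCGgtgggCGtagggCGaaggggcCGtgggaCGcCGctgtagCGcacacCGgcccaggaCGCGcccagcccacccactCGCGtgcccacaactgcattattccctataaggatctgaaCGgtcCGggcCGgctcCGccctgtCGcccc
Itgb5: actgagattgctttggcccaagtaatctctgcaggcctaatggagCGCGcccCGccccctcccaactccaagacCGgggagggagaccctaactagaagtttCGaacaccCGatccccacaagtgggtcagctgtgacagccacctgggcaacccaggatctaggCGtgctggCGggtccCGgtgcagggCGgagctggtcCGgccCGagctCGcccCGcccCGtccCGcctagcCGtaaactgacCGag
Mmp14: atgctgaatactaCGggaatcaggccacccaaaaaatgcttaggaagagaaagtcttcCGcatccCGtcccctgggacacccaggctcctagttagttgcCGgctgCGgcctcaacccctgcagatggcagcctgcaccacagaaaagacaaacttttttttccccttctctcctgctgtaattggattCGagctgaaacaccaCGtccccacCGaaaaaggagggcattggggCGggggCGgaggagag

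Of the bases shown, the 125 next to the gene's start held 13 CG in Itga8, 14 in Timp3, 12 in Itgb5 and 5 in Mmp14, and the 125 farther away held 5, 4, 6 and 5 in the same order of genes. Over the whole window of 300 bases, CG occurred 23 times in Itga8, 24 times in Timp3, 20 times in Itgb5 and 10 times in Mmp14. Of all 32851 windows, 21.5% held at least as many as Itga8, 20% as Timp3, 26.5% as Itgb5 and 43.5% as Mmp14. These shares are over windows and not over the genes tested. By each gene's window with the most CG, 42.3% of the genes tested with a window held at least 20. That share was 54.5% for all genes that were higher and 51.2% for all that were lower. Timp2 had 25 and Itga4 had 10, and Itga3 had 24 in 1 of its 2 windows and 5 in the other. CG reads the same on both strands, so each was counted once.

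Taking for each gene the window with the most CG, the median was 23 for the 7 genes past the threshold with a window and 12 for the 75 members that were not, against 16 for all genes tested with a window. It was 21 for all genes that were higher and 20 for all that were lower, so high CG counts occurred with both directions, as in Itga8 and Timp3. The collagen median was 12 over 33 genes. These are counts of letters, and binding and methylation were not measured here.

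**Figure D5:**
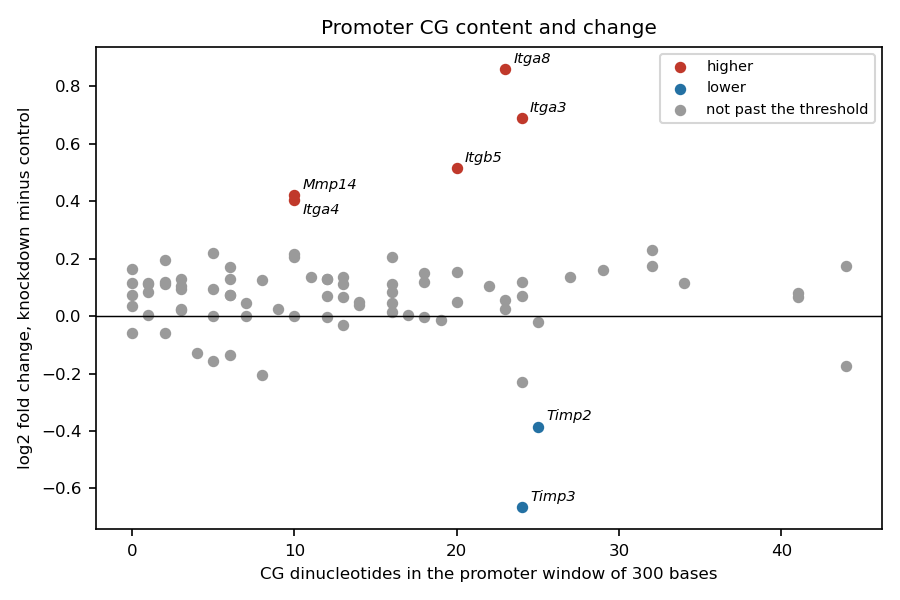
Number of CG dinucleotides in the RefSeq promoter window of 300 bases (horizontal axis, the window with the most where a gene has several) against the log2 fold change (vertical axis, knockdown minus control) of the 82 members with a window, a point per gene. Of the 7 labelled genes past the threshold, 5 have 20 to 25 CG and Itga4 and Mmp14 have 10, and many members with as many CG lie near 0.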

How the data were processed

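The deposited values are log2 expression per probe set with 2 decimals for 35557 probe sets, and the submitters' processing notes name Affymetrix Expression Console as the tool. Its background step, summary method and scaling between arrays are not stated, and the log2 scale was inferred from the range of the values. Gene symbols were taken from the annotation of the platform, where 21789 probe sets had 1 symbol, 1621 several and 12147 no entry, and 19855 of the 19938 genes matched RefSeq by Entrez ID. Per gene the probe set with the highest mean over the 4 arrays was used. Of the 122 genes listed by role, Adamts2, Col21a1, Col4a3bp, Loxl2 and Mmp15 had no probe set with 1 symbol and are not analysed here.

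Knockdown was compared with control by limma 3.58.1 in R 4.3.3 (lmFit and eBayes on all 4 arrays with no covariate, two-sided, with Benjamini-Hochberg adjustment over 19938 genes), and the procedure was tested on simulated data. SE and 95% intervals are limma's moderated ones. Without detection values, no gene can be called absent, and the number of arrays limits the precision.

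Named with values are Kdm2b, every member past the threshold, the 2 members with the largest change in each role, and up to 4 genes past the threshold per related list. Other genes named were chosen after their values were seen. The members, roles and lists were chosen with earlier results of these data known. Alternatives were a replicate block, each array left out, quantile normalization, centring, no dim genes, the mean of probe sets, an intensity trend, a robust prior and a threshold of 0.1.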

Additional observations from a re-analysis of the deposited data

How the results depend on the processing

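The 6 higher and 2 lower members, and the 10 higher and 3 lower related genes, all fell to 0 with the replicate number as a block and with any 1 array left out (0 to 0 over the 4 fits). The labels do not say that the replicate numbers pair the arrays. Deviations of arrays with the same number correlated at 0.0954, and the block left 0 of the 19938 genes past the threshold, with 5411 at an unadjusted p under 0.05. These fits have 1 residual degree of freedom. None of the 43 members that the naming rule picks changed sign under any alternative run. For members whose groups did not overlap, leaving out 1 array cannot change the sign. Over all 117 members, 33 changed sign under at least 1 alternative, each with a log2 fold change no larger than 0.12 in size, Timp4 among them. With arrays left out in turn, the log2 fold change ran from 0.785 to 0.935 for Itga8, 0.48 to 0.90 for Itga3, 0.435 to 0.595 for Itgb5, 0.355 to 0.485 for Mmp14, 0.36 to 0.45 for Itga4, 0.315 to 0.425 for Itgb4, -0.76 to -0.57 for Timp3 and -0.425 to -0.345 for Timp2. With dim genes left out, 1 member (Timp3) was lower because Timp2 was not tested, 6 were higher with Mmp17 in place of Itga4, and 6 related genes were lower. At a threshold of 0.1, 10 members and 16 related genes were higher, and 3 members and 9 related genes lower. The share of all genes that pass at 0.1 was not counted. Lower related genes numbered 5 with centring and 5 with an intensity trend. In those fits 2707 and 2681 of all genes passed, against 2431 in the main fit. The cause of these shifts was not tested. Low signal limits 58 of the 117 members, which lay at or under the median of all probe sets.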

Other observations

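Of the 117 members, 8 were measured by several probe sets, and none of the genes past the threshold was among them. The 15 further probe sets of Adamts3 had log2 fold changes of -0.01 to 0.29, against 0.065 for the one used. The 5 further probe sets of Adamts9 had -0.19 to 0.40, against -0.02, and 2 of them passed the threshold in the fit over every probe set with a single symbol, the only further probe sets of a member that did. The 4 further ones of Adamts17 had 0.095 to 0.21, against 0.005. Of the probe sets that carry several symbols, 4 list a name that the member rule matches and are not used here.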
